A study of Mus musculus with 8 samples.

Results

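The 10 genes examined here, Trpm5, Avil, Dclk1, Gnb3, Gng13, Pou2f3, Il25, Sh2d6, Plcb2 and Alox5, are known from tuft cells, the chemosensory epithelial cells of gut and airway that were later recognised in the thymus medulla. They were taken by symbol from the deposited matrices, in which all 10 occurred once among the 27514 genes shared by both gene lists of the study. The data were droplet single-cell RNA-seq of thymic epithelial cells (TEC) from wild-type C57BL/6 mice, with no transgene or treatment in any group used here. The 8 libraries held E13.5 total TEC, cortical TEC (cTEC; Ly51+ UEA-1-) of E15.5, E17.5 and newborn (NB) mice, and 2 libraries each of adult cTEC and adult medullary TEC (mTEC; Ly51- UEA-1+), all sorted as EpCAM+ CD45-. UEA-1 is a lectin that binds medullary cells and Ly51 is a surface marker of cortical cells. No fetal or NB mTEC library was analysed here. Replicate 1 of both adult groups belonged to data set 1 of the study, with the E13.5, E15.5 and NB libraries, and replicate 2 to data set 2, with the E17.5 library. By the methods, adults were 4 to 6 weeks old and NB mice up to 2 days, and either sex was used unless stated otherwise. The animals behind each library were not given in the sources used here, so p-values measure the spread between libraries only.

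Tuft cells sense their surroundings with the cascade used by taste buds. A receptor activates a G protein, its subunits activate phospholipase C beta 2, the calcium that follows opens the cation channel TRPM5, and the cell then releases mediators such as the cytokine IL-25 and leukotrienes. POU2F3 is the transcription factor that tuft cells need to form.

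Within the limits of the study on cell quality, 25750 of 28334 cells were kept, from 507 cells in adult cTEC replicate 1 to 8350 at E17.5. Totals ran from 2257967 to 90103548 unique molecular identifiers (UMIs) per library, and median depth from 3996 to 11386 UMIs per cell. One of the labels names bone marrow beside the thymus label, but at least 1 of Epcam, Krt8, Krt18, Cdh1 and Foxn1 was detected in at least 98.88% of the cells of each library. The cTEC markers Psmb11, Prss16, Ly75, Ccl25 and Cxcl12 summed to 5804 and 10100 UMIs per 1000000 UMIs of a library (CPM) in adult cTEC against 292 and 379 CPM in adult mTEC, and Aire was detected in 51.5% and 74.8% of adult mTEC. Libraries shared at most 61 cell barcodes. The adult cTEC libraries had the fewest cells, and replicate 1 of them the lowest median depth, which limits what could be detected there.

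The upstream sequences of Avil, Trpm5 and Sh2d6 are shown because these 3 genes were often found together in single cells. They are the 250 bases before the RefSeq transcription start (GRCm38.p6), on the strand of the gene. That of Sh2d6 lies inside the GENCODE span of the gene given further on, which starts farther upstream. Capitals mark ATGCAAA or its reverse complement TTTGCAT, the first 7 bases of the octamer ATGCAAAT that POU factors are known to bind. This shorter motif was added after the sequences were seen.
Avil, chr10:127000459-127000708, plus strand: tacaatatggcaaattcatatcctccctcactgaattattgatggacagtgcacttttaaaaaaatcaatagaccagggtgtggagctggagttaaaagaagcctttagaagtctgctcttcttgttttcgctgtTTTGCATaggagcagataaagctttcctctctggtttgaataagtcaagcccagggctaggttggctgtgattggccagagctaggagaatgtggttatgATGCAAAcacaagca
Trpm5, chr7:143094643-143094892, minus strand: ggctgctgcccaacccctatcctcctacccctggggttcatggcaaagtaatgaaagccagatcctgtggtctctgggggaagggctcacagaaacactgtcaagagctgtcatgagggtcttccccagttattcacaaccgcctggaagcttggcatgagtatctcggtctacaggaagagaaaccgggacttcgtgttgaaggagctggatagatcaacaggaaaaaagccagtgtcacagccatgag
Sh2d6, chr6:72520037-72520286, minus strand: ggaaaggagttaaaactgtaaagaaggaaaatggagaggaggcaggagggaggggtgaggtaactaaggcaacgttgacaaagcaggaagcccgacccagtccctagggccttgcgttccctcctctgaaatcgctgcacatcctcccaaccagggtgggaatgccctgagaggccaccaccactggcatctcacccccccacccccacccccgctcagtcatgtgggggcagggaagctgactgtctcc
The full octamer, searched on both strands, was in none of the 9 upstream sequences listed for 7 of the 10 genes, and 1.60% of all 32851 upstream sequences in the table held it. The 7-base form was in 1 of the 9, that of Avil, which held it once on each strand. It was found in 4.13% of all upstream sequences, and 2 or more copies in 0.247%. A match of letters is no evidence of binding.

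Adult mTEC held all 10 genes in both libraries, and Sh2d6 had no UMI in any fetal or NB library (plot of CPM by library). The levels that follow are CPM over all kept cells of a library, given in the order E13.5 TEC, E15.5, E17.5 and NB cTEC, adult cTEC replicates 1 and 2, and adult mTEC replicates 1 and 2. Intervals, where given, are exact and cover counting error only. Levels are compared between libraries and not between genes. A sum over a library does not tell fewer positive cells from less RNA per cell, for which the shares of cells are given further on.

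**Figure D1:**
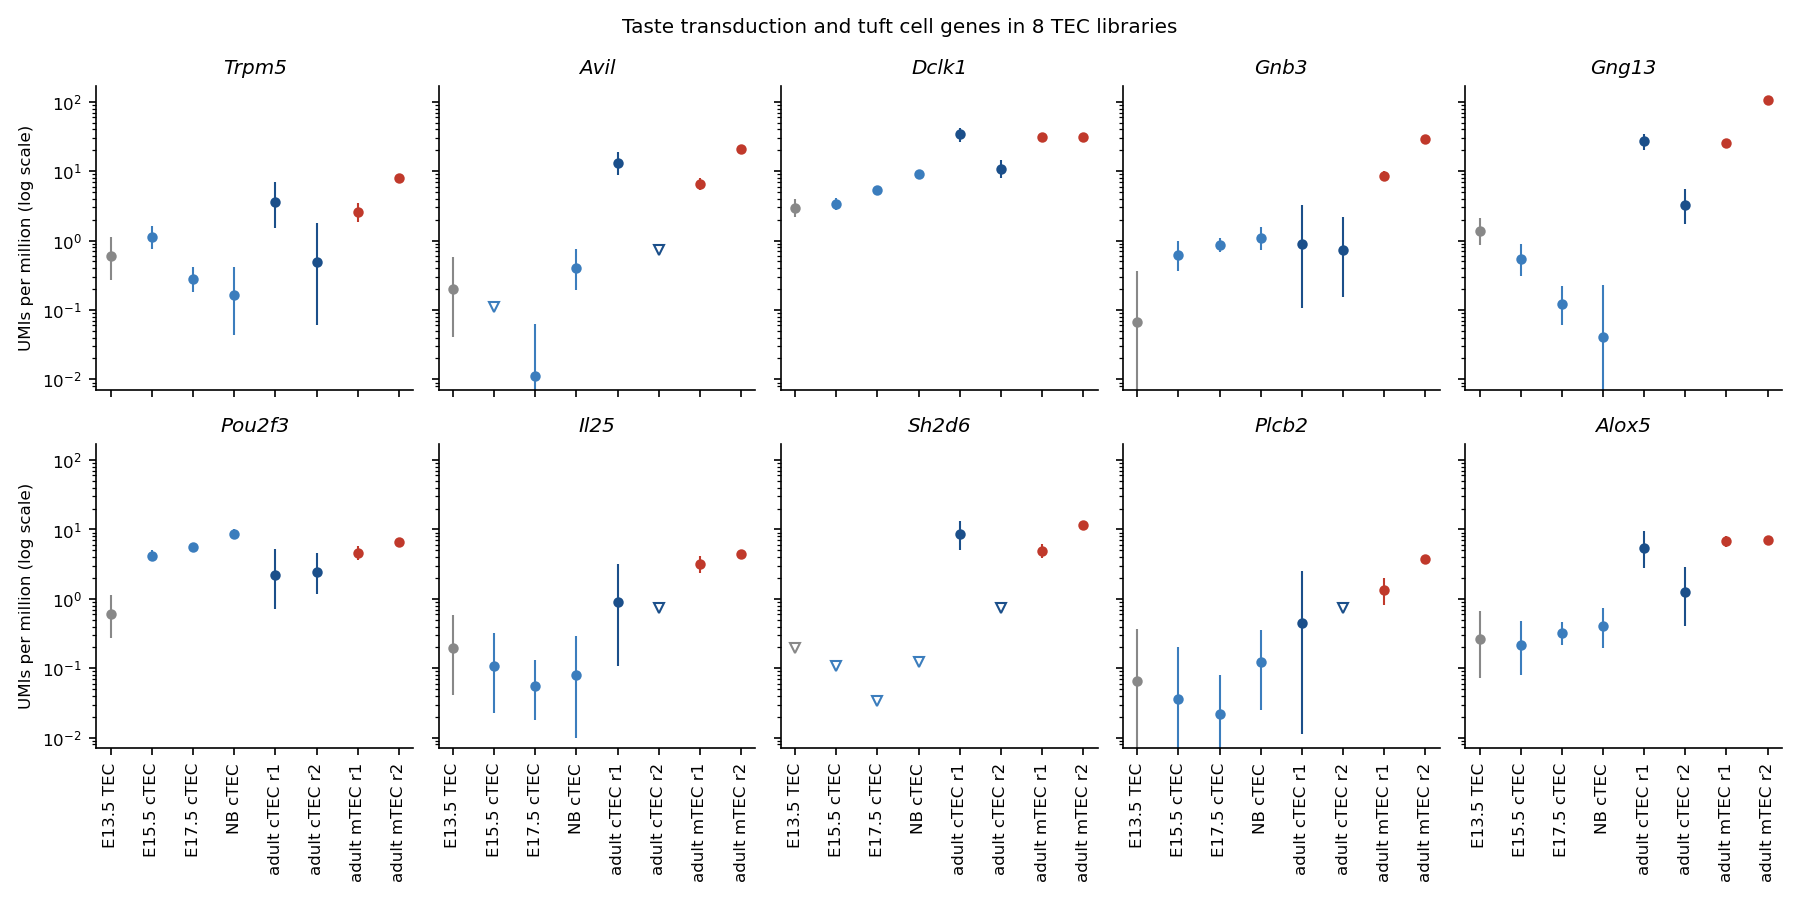
CPM of each gene (log axis) in the 8 libraries, with exact 95% Poisson intervals that are cut off at the foot of the axis. Grey is E13.5 TEC, light blue fetal and NB cTEC, dark blue adult cTEC (r1 and r2, replicates 1 and 2) and red adult mTEC, and open triangles stand at the level of 3 UMIs where none was counted. Sh2d6 had none in 5 libraries, and Pou2f3 was higher in NB cTEC (8.75) than in adult mTEC (4.57 and 6.63).

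Both G protein subunits had their highest level in adult mTEC replicate 2. Gnb3 (chr6:124834240-124840275), a G protein beta subunit shared with cone photoreceptors, was at 0.0664, 0.617, 0.867, 1.09, 0.894, 0.743, 8.66 and 29.1 CPM. Both adult mTEC libraries lay above all 6 others. Gng13 (chr17:25717171-25719406), the gamma subunit of the taste G protein, was at 1.39, 0.545, 0.122, 0.0405, 26.8, 3.22, 25.7 and 107 CPM. Adult cTEC replicate 1 stood level with mTEC replicate 1, and the 4 fetal and NB libraries were at or below 1.39.

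The enzyme and the channel downstream of the G protein were also highest in adult mTEC replicate 2. Plcb2 (chr2:118707517-118728438), the phospholipase C of taste cells, was at 0.0664, 0.0363, 0.0222, 0.122, 0.447, 0, 1.32 and 3.73 CPM, which outside adult mTEC rested on 0 to 3 UMIs per library. Trpm5 (chr7:143069153-143094642), the calcium-activated cation channel, was at 0.598, 1.13, 0.278, 0.162, 3.57, 0.495, 2.58 and 8.01 CPM. At E15.5 its 31 UMIs were spread over 29 cells, and in adult cTEC replicate 1 its 8 UMIs lay in 4 cells.

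The structural and adaptor genes were at or near 0 in the fetal and NB libraries. Avil (chr10:127000709-127020994) encodes advillin, an actin-binding protein of the apical tuft, and was at 0.199, 0, 0.0111, 0.405, 12.96, 0, 6.55 and 20.7 CPM. Sh2d6 (chr6:72513641-72521707), which encodes an SH2 domain protein, was at 8.49 CPM in adult cTEC replicate 1, 4.93 and 11.4 CPM in adult mTEC, and at 0 UMIs in the 5 other libraries. A count of 0 allowed up to 0.199, 0.109, 0.0333 and 0.122 CPM of Sh2d6 in the fetal and NB libraries by age, and 0.743 CPM in the second adult cTEC library.

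The mediator genes differed from each other in spread. Il25 (chr14:54932695-54935837), the cytokine by which tuft cells start type 2 immunity, was at 0.199, 0.109, 0.0556, 0.0810, 0.894, 0, 3.19 and 4.50 CPM, with at most 5 UMIs in any library but adult mTEC. Alox5 (chr6:116410077-116461178), the 5-lipoxygenase that begins leukotriene synthesis, was at 0.266, 0.218, 0.322, 0.405, 5.36, 1.24, 6.79 and 7.06 CPM. Its level in adult cTEC replicate 1 (95% interval 2.77 to 9.37) overlapped that of mTEC replicate 1 (5.60 to 8.17).

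Dclk1 and Pou2f3, both widely used to mark tuft cells, were also found in fetal and NB cTEC, Dclk1 in 80, 437 and 192 cells and Pou2f3 in 108, 479 and 196 cells at E15.5, E17.5 and NB. Dclk1 (chr3:55242364-55539068), a kinase that binds microtubules, was at 2.99, 3.38, 5.39, 9.04, 34.0, 10.9, 31.2 and 30.9 CPM. Pou2f3 (chr9:43123939-43210369) was at 0.598, 4.21, 5.58, 8.75, 2.23, 2.48, 4.57 and 6.63 CPM, so that NB cTEC lay above both adult mTEC libraries. The E13.5 library was the lowest for both genes, and each fetal and NB group was 1 library, so no test was made. Adult cTEC replicate 1 overlapped mTEC for Dclk1.

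Of the 10 genes, 4 overlapped a gene on the opposite strand in the GENCODE vM21 annotation (GRCm38), from which the gene positions were taken. These were Gng13 with Chtf18, Trpm5 with Tssc4, Avil with Tsfm, and Dclk1 with the gene models Gm42609 and Gm21954. On its own strand Dclk1 also overlapped the gene models Gm25132, Gm19817, Gm42607 and Gm42608, and no other of the 10 overlapped a gene on its own strand. By the methods, Cell Ranger was run at its defaults on libraries of the Chromium 3′ kit, and these defaults count reads on the strand of the gene. Chtf18 was at 13.2, 6.87, 3.90 and 3.04 CPM in the fetal and NB libraries by age, falling in the same order as Gng13, at 0.894 and 0.743 CPM in adult cTEC and at 4.51 and 6.95 CPM in adult mTEC. Both genes were in the same cell in 12 (7.15 by the product of the shares) and 176 (152.6) of adult mTEC. The part of reads from the opposite strand, or from the gene models on the strand of Dclk1, was not tested.

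The adult comparison asked which genes differ between cortical and medullary cells, with UMIs summed per library and the data set as a term (edgeR quasi-likelihood test on 15650 genes, Benjamini-Hochberg adjustment). Of the 10 genes, 4 passed at an adjusted p under 0.05 and all 4 were lower in adult cTEC, against 21.3% of all genes tested that were called lower. None of the 10 was called higher, against 11.3% of all genes, and 6 of the 10 had an unadjusted p under 0.05 by edgeR, as did 41.3% of all genes. The median log2 difference, cTEC minus mTEC, was -1.60 over the 10 genes and -0.14 over all genes tested. The median over the members moved to -4.54 without adult cTEC replicate 1, -2.21 without adult mTEC replicate 1, -1.17 without adult cTEC replicate 2 and -0.96 without adult mTEC replicate 2, where 9 were tested.

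Fits that left out 1 library had no data set term, and 1 of their groups was a single library that was assumed to vary like the others. Gnb3 fell by 4.65 on the log2 scale in cTEC (SE 0.67, edgeR adjusted p = 1.16e-07). It was called in each fit that kept all adult libraries and did not leave out cells by these genes. Among these were the DESeq2 test (adjusted p = 0.000485) and edgeR without the data set term (adjusted p = 0.0188). Its log2 difference was -4.69 with an adjusted p of 0.0942 without adult cTEC replicate 1, -4.63 with 0.115 without adult cTEC replicate 2, -5.35 with 1.60e-07 without adult mTEC replicate 1, and -3.46 with 0.0245 without adult mTEC replicate 2 (edgeR). Gng13 fell by 2.34 (SE 0.63, edgeR adjusted p = 0.00251). Its log2 difference was -4.39 without adult cTEC replicate 1, -3.15 without adult mTEC replicate 1, -1.53 without adult cTEC replicate 2, and -0.96 without adult mTEC replicate 2. With the DESeq2 test the adjusted p of Gng13 was 0.0650, and by edgeR without the data set term it was 0.154. Il25 and Plcb2 were called with adjusted p = 0.00871 and 0.0229 (edgeR), but on 2 and 1 UMIs in adult cTEC. With 1 library left out, the adjusted p of Il25 was 0.0400 without cTEC replicate 1 and 0.0837 to 0.329 without each of the others, and that of Plcb2 was 0.111, 0.0953 and 0.243 without cTEC replicate 1, mTEC replicate 1 and cTEC replicate 2, and it was not tested without mTEC replicate 2. The fitted size for such counts depends on the prior, so the ratio is given per data set: Il25 was 3.57-fold higher in mTEC in data set 1 (counting interval 0.939 to 30.2) and at least 6.06-fold higher in data set 2, taking 3 UMIs for the library at 0. Plcb2 was 2.96-fold higher in data set 1 (0.478 to 122) and at least 5.02-fold higher in data set 2. The DESeq2 test called Gnb3 alone among the 10, and 1646 of all 15650 genes lower in cTEC.

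The other 6 genes did not pass, with edgeR adjusted p of 0.140 for Trpm5, 0.0968 for Avil, 0.183 for Dclk1, 0.134 for Pou2f3, 0.124 for Sh2d6 and 0.0868 for Alox5. Their fitted log2 differences lay between -1.62 (Avil) and -0.75 (Dclk1). With all deposited cells, Trpm5, Avil and Sh2d6 passed (edgeR adjusted p = 0.0380, 0.0293 and 0.0287). Avil also passed without the filter on low counts, without droplets of 3 or more thymocyte markers and without the top 5% of cells by UMIs (edgeR adjusted p 0.0238 to 0.0404). It did not by the DESeq2 test (adjusted p = 0.210) or by edgeR without the data set term (adjusted p = 0.494). Of the 10 genes, Trpm5, Avil, Dclk1, Gng13 and Sh2d6 had a higher CPM in cTEC than in mTEC in data set 1, and all 10 were lower in cTEC in data set 2. In data set 1 the counting interval of the ratio, mTEC over cTEC, held 1 for Trpm5 (0.336 to 1.78), Dclk1 (0.721 to 1.19), Gng13 (0.731 to 1.28) and Sh2d6 (0.349 to 1.01). Avil was the one beyond counting error, 0.506 times as high in mTEC as in cTEC (0.333 to 0.790), and at least 27.8 times as high in data set 2. The opposite directions in the 2 data sets were not tested as a difference, and directions within a data set were not counted over all genes.

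In adult cTEC replicate 1, 3 of 507 cells held UMIs of 7 of the 10 genes each, and no other cell held more than 2. These 3 cells carried 28 of the 29 Avil UMIs of the library, 58 of the 60 Gng13 UMIs, 7 of the 8 Trpm5 UMIs and all 19 Sh2d6 UMIs. They held 11, 10 and 7 UMIs of Avil, 38, 11 and 9 of Gng13, and 6, 5 and 5 of Dclk1, at depths of 3920, 3236 and 4217 UMIs, and none of Gnb3. Epcam was present in all 3 cells (6, 1 and 3 UMIs) and Ptprc, which encodes CD45, in none. Of the 5 cTEC markers they held 1 UMI in all, of Prss16. Their barcodes occurred in no other library. Among the kept cells of adult cTEC replicate 2 none held more than 3 of the genes. The exact interval of 0 of 535 cells with 5 or more was 0 to 0.687%, overlapping that of replicate 1 (0.122% to 1.72%). The share with 3 or more of the genes was 0.592% and 0.187% of the kept cells of replicates 1 and 2, and 0.587% and 0.690% of all deposited cells.

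Without all cells holding 5 or more of the genes, an alternative chosen after seeing these cells, the CPM of 9 of the 10 genes was lower in cTEC than in mTEC in data set 1 and that of 10 of 10 in data set 2. The cells left out were chosen by these same genes, so this is a description. A fit without these cells was run, but for the same reason it is no test, and the count by direction was not made over all genes. In data set 1 Il25 was the exception, on 1 and 4 UMIs, Plcb2 had 0 UMIs in cTEC and a level in mTEC under the limit that 0 allows, and Dclk1 was level (1.02-fold higher in mTEC, counting interval 0.780 to 1.36). Sh2d6 then had 0 UMIs in both cTEC libraries, and was at least 1.12-fold and 5.15-fold higher in mTEC. Gng13 was 18.9-fold higher in mTEC in both data sets (counting intervals 5.18 to 157 and 11.02 to 35.5).

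In single cells of adult mTEC the genes were found together. At least 3 of the 10 were detected in 26 of 1586 cells of replicate 1 (1.64%, exact 95% interval 1.07 to 2.39) and in 409 of 5615 cells of replicate 2 (7.28%, 6.62 to 7.995). With each cell thinned to 3000 UMIs, which left 1577 and 5403 cells deep enough, the shares were 0.951% (0.533 to 1.56) and 2.48% (2.08 to 2.93). Thinned adult cTEC had 3 of 352 cells in replicate 1 (0.852%, 0.176 to 2.47), overlapping mTEC replicate 1, and 0 of 509 in replicate 2 (exact interval 0 to 0.722%). The mTEC replicates still differed by more than the counting error, and each was 1 library. Without thinning, the share among fetal and NB cells was 1 of 8350 at E17.5 and 0 in the other libraries. For these, the exact upper limit was 0.186% of E13.5 TEC, 0.103% of E15.5 cTEC and 0.102% of NB cTEC.

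**Figure D2:**
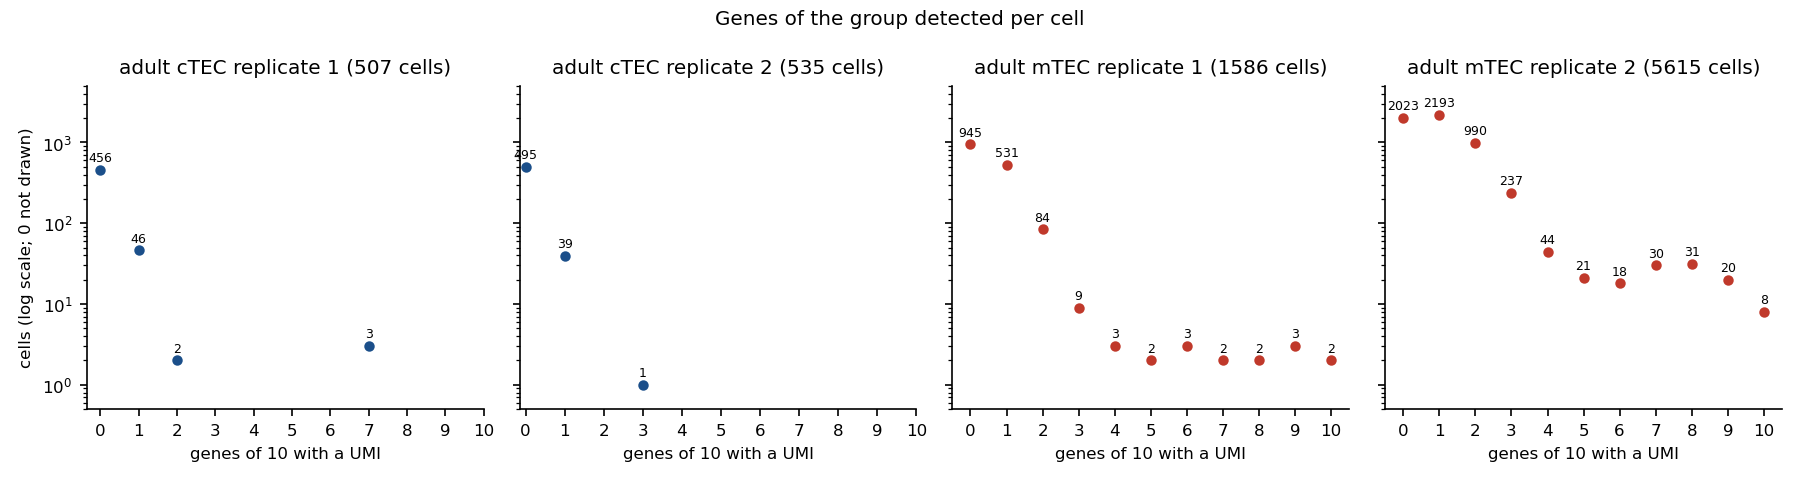
Number of cells (log axis, values printed, 0 not drawn) by how many of the 10 genes had a UMI, in the adult cTEC (blue) and adult mTEC (red) libraries. In mTEC replicate 2 the counts fell to 18 cells at 6 genes and rose again to 31 at 8, and in cTEC replicate 1 the 3 cells with 7 genes stood apart.

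The number of genes per cell had a second rise in mTEC replicate 2, from 18 cells with 6 genes to 30 with 7 and 31 with 8, whereas replicate 1 held 2 or 3 cells at each number from 4 to 10. A second limit of 5 or more genes, chosen after seeing this, held 14 cells of replicate 1 (0.883%, 0.483 to 1.48) and 128 of replicate 2 (2.28%, 1.91 to 2.71). Near that limit, 2 and 21 cells held exactly 5 genes, and 3 and 44 cells held 4. These cells were not deeper than the rest: their median was 6568 against 9503 UMIs in replicate 1 and 7542 against 11440 in replicate 2. Their median share of mitochondrial UMIs was 3.96% against 3.14% and 3.27% against 2.23%. None held 3 or more thymocyte markers, and 4 of the 128 barcodes, and none of the 14, occurred in another library.

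Every gene was detected more often where others were. In replicate 2, thinned to 3000 UMIs, Trpm5 was detected in 78 of 125 cells with 3 or more of the other 9 genes (62.4%, 53.3 to 70.9) and in 22 of 3877 cells with none (0.567%, 0.356 to 0.858). Replicate 1 gave 9 of 13 cells (69.2%, 38.6 to 90.9) and 4 of 1283 (0.312%, 0.0850 to 0.796). As deposited, the Trpm5 shares in replicate 2 were 32.1% and 2.41%, at median depths of 13500 and 9441 UMIs. After thinning, the intervals of the 2 classes did not overlap for any of the 10 genes in either library. No gene outside the 10 was split this way, so how usual such a gap is among all genes was not tested. The smallest ratio of the shares was that of Dclk1 in replicate 1 (57.1% against 9.03%, 6.33-fold) and of Gng13 in replicate 2 (100% against 13.7%, 7.32-fold).

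**Figure D3:**
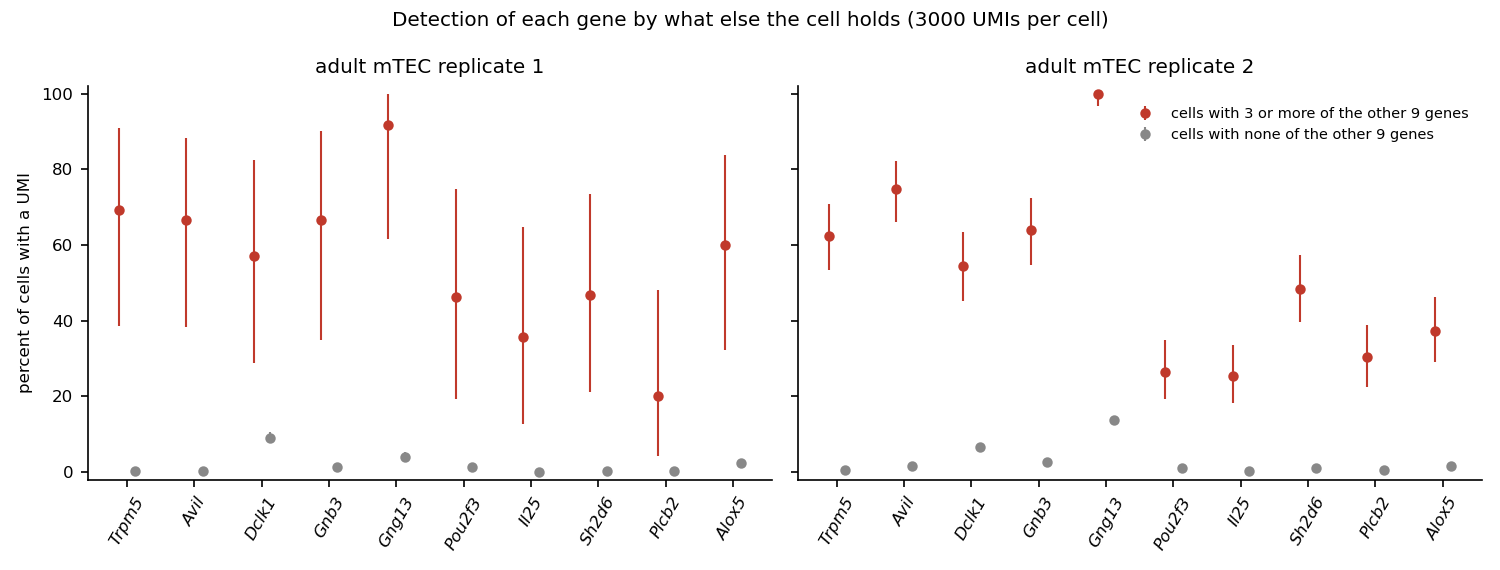
Percent of adult mTEC with a UMI of each gene, with exact 95% binomial intervals, in cells thinned to 3000 UMIs that held 3 or more (red) or none (grey) of the other 9 genes. Every red interval lies above its grey counterpart, and the grey points of Dclk1 (9.03% and 6.66%) and Gng13 (4.12% and 13.7%) are the highest.

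By pairs, all 45 combinations were in the same cell more often than the product of their shares in both thinned libraries, with a median ratio of 16.7 in replicate 1 and 7.55 in replicate 2. In replicate 2 the highest ratio was that of Trpm5 with Il25, found together in 28 cells against 1.21, and the lowest that of Dclk1 with Gng13, in 107 cells against 64.0. As deposited, 43 of the 45 pairs of replicate 1 and all 45 of replicate 2 were above the product, and the 2 below it were Dclk1 with Gng13 (37 cells against 39.5) and Dclk1 with Gnb3 (14 against 14.5). Pairs share cells and genes, so these counts are no independent tests, and pairs of other genes were not counted.

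**Figure D4:**
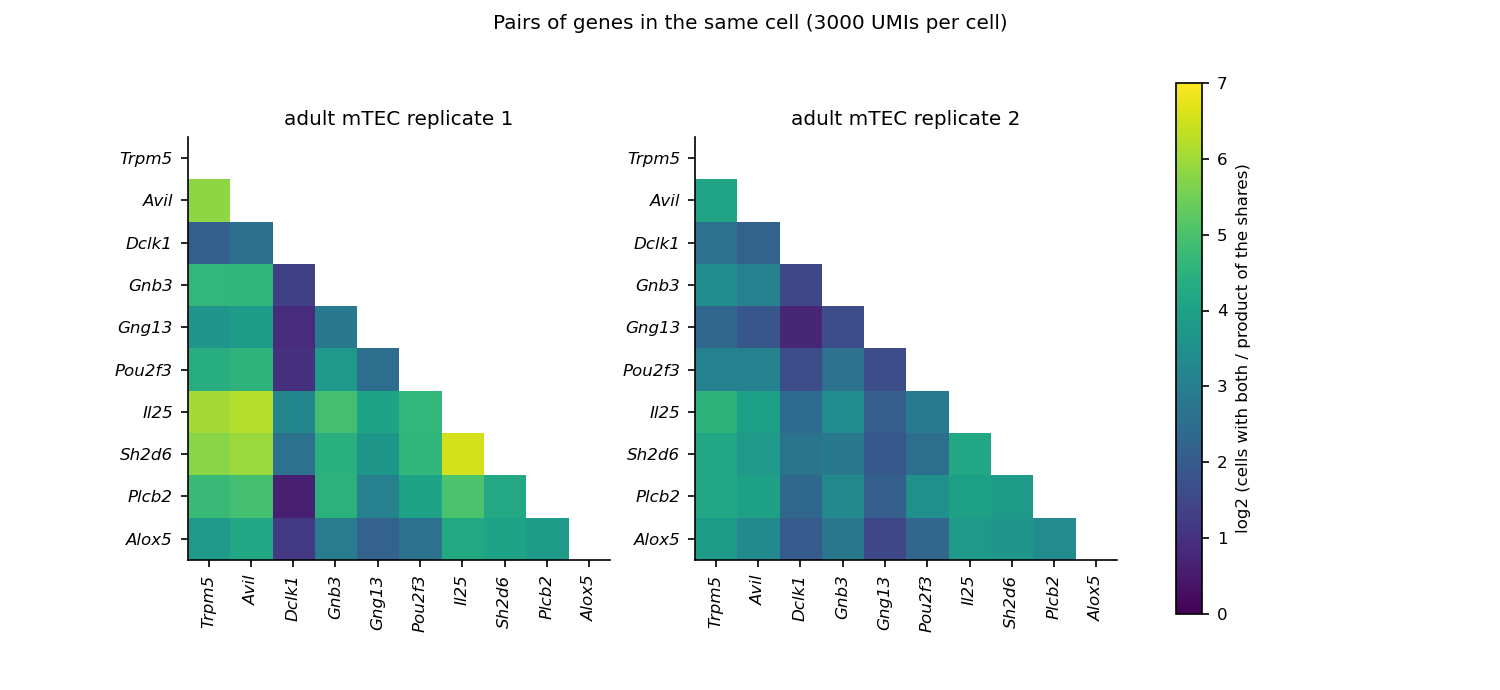
Log2 ratio of the cells with both genes of a pair to the number given by the product of their shares, in adult mTEC thinned to 3000 UMIs. The column and row of Dclk1, and in replicate 2 those of Gng13, are mostly dark, and the brightest are Il25 with Sh2d6 in replicate 1 and Trpm5 with Il25 in replicate 2.

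The genes fell into those held mostly by the cells with 5 or more of them and those that were not. In replicates 1 and 2, these cells carried 67.4% and 66.1% of the Trpm5 UMIs, 74.3% and 66.0% of Avil, 92.5% and 71.6% of Il25, 69.5% and 67.1% of Sh2d6, and 63.6% and 63.0% of Plcb2. Gnb3 was at 37.5% and 67.45%. By contrast they carried 12.3% and 29.1% of Dclk1, 22.4% and 31.4% of Pou2f3, 34.6% and 44.1% of Gng13, and 29.2% and 49.5% of Alox5. The UMIs outside these cells in replicate 2 were 0.396 to 0.589 times those inside for Trpm5, Avil, Gnb3, Il25, Sh2d6 and Plcb2, but 1.02 times for Alox5, 1.27 for Gng13, 2.19 for Pou2f3 and 2.43 for Dclk1. The 10 genes themselves were used to choose them, so these shares are a description.

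Dclk1 and Gng13 were detected well beyond the cells that held the other genes. Dclk1 was detected in 21.9% of adult mTEC in replicate 1 (19.9 to 24.1) and 20.5% in replicate 2 (19.5 to 21.6), and in 7.10% and 3.74% of adult cTEC, at median depths of 9500.5 and 11386 UMIs in mTEC and 3996 and 7062 in cTEC. Thinned to 3000 UMIs, the shares were 9.32% and 7.48% in mTEC and 7.67% and 2.95% in cTEC, where the intervals of the replicate 1 libraries overlapped (7.93 to 10.9 and 5.12 to 10.96). Of the cells positive for Dclk1 as deposited, 3.45% and 10.5% held 3 or more of the others.

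Gng13 was detected in 11.3% of mTEC in replicate 1 (9.83 to 13.01) and 39.8% in replicate 2 (38.6 to 41.1), against 0.986% and 0.748% of adult cTEC. In thinned cells of replicate 2 without 5 or more of the genes, its share was 12.4% (11.1 to 13.7) in cells with 3 or more of the 5 mTEC I markers (Ccl21a, Krt5, Krt14, Itga6, Pdpn) and 15.4% (14.1 to 16.9) in the rest, and 14.3% (13.2 to 15.4) and 13.03% (11.4 to 14.8) for the mTEC II markers Aire, Fezf2, Cd80, Cd40 and Tnfrsf11a. Ccl21a had no UMI in mTEC replicate 1 and almost none in replicate 2, where 1 cell held all 5 mTEC I markers, so that class rests on the other 4. In replicate 1 the cells with mTEC II markers had the higher share, 5.96% (4.44 to 7.81) against 2.56% (1.55 to 3.98), at median depths before thinning of 12630 and 7105 UMIs. There 7 of 37 cells with 3 or more of the 5 microfold markers were positive too (18.9%, 7.96 to 35.2), against 3.997% of the others (3.07 to 5.11), and in replicate 2 the microfold shares were 15.1% (12.4 to 18.2) and 13.7% (12.8 to 14.8). The part of free RNA in the wide detection of Gng13 in replicate 2 was not tested.

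Dclk1, Alox5 and Pou2f3 outside those cells followed the mTEC marker classes. Dclk1 was detected in 13.1% of thinned cells with 3 or more mTEC I markers against 4.43% of the rest in replicate 1, and in 8.56% against 4.002% in replicate 2. Alox5 was at 3.77% against 1.04% and at 1.96% against 0.838%. For both genes and both libraries the intervals did not overlap. Pou2f3, which is also known from the upper layers of the skin, was detected in 12 of 244 cells with 3 or more of the mTEC III markers Krt10, Krt1, Ivl, Spink5 and Krtdap in replicate 2 (4.92%, 2.57 to 8.43), against 1.09% of the 5032 others (0.824 to 1.42). In replicate 1 there were 2 of 10 such cells and 1.16% of the rest. Classes were cut from a count of markers, and many cells lay near the limit: for mTEC I, 416 and 534 cells of replicate 1 held 2 and 3 markers, and 1771 and 2060 of replicate 2.

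In fetal and NB cTEC, Dclk1 and Pou2f3 were detected in more cells than any other of the 10 genes. The next most frequent were Trpm5 at E15.5 (29 cells) and Gnb3 at E17.5 and NB (77 and 27 cells). Pou2f3 was detected in 108 of 3571 cells at E15.5 (3.02%, 2.49 to 3.64), 479 of 8350 at E17.5 (5.74%, 5.25 to 6.26) and 196 of 3605 NB cTEC (5.44%, 4.72 to 6.23). Dclk1 was detected in 2.24%, 5.23% and 5.33% of these cells. Thinned, Pou2f3 was at 1.43%, 1.61% and 2.69%, and the adult mTEC at 1.71% and 1.96%. Both genes were in the same cell in 3 cells at E15.5 (2.42 by the product of the shares), 37 at E17.5 (25.1) and 11 in NB cTEC (10.4), and in 18 (12.95) and 110 (67.7) of adult mTEC. No fetal or NB cell held more than 3 of the 10 genes.

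Beside the 10 genes, the lists of known tuft cell genes were compared between mTEC with 5 or more of them and mTEC with 0 to 2, as log2 ratios of CPM + 10. These lists were chosen with results of these data known, so the counts from them are a description. With 1 pool of cells per library and no test, a gene was counted where it was at least 4-fold higher in both libraries, as were 0.658% of the 20977 genes with UMIs in both, and 0.0667% were at least 4-fold lower in both. All 8 genes of the tuft cell signalling adaptor list met this, among them Lrmp (1468 and 1535 against 3.67 and 7.07 CPM), the kinase Bmx, and the phosphatases Ptpn6 and Inpp5d. Of the 9 genes of eicosanoid synthesis 4 did: Alox5ap, which hands arachidonic acid to 5-lipoxygenase, at 1189 and 879 against 0.918 and 5.20 CPM, the leukotriene C4 synthase gene Ltc4s at 689 and 735 against 8.63 and 24.3, and the prostaglandin enzymes Ptgs1 and Hpgds. Lta4h and Tbxas1 did not, with Tbxas1 at 0 and 0.861 CPM in these cells. Taking instead the cells with 3 or more of the genes, 6 of the signalling adaptors, 3 eicosanoid genes, 2 taste signalling partners, 1 transcription factor (1810046K07Rik) and 1 cytoskeletal or surface gene (Ly6g6f) were at least 4-fold higher in both.

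Of the 49 taste signalling partners 3 passed that fold in both libraries: Rgs13, a regulator of G protein signalling (1623 and 999 against 0.796 and 2.64 CPM), Gnat3, which encodes gustducin, the alpha subunit of the taste G protein (164 and 401 against 0.367 and 1.39), and Rgs21, another regulator (41.0 and 76.6 against 0.184 and 0.373). Gnat3 was detected in 42.9% and 44.5% of the cells. The channels of taste bud transmitter release, Calhm1 and Calhm3, were at 0 in replicate 1 and at 0 and 0.861 CPM in replicate 2. The 35 bitter receptor genes (Tas2r) together held 3 UMIs in replicate 1 and 106 in replicate 2, where 20 of them had a UMI and Tas2r105 was the most frequent, with 39 UMIs in 7.81% of the cells. The sweet and umami receptor genes (Tas1r) held 0 and 48 UMIs. The cells of replicate 1 numbered 14.

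**Figure D5:**
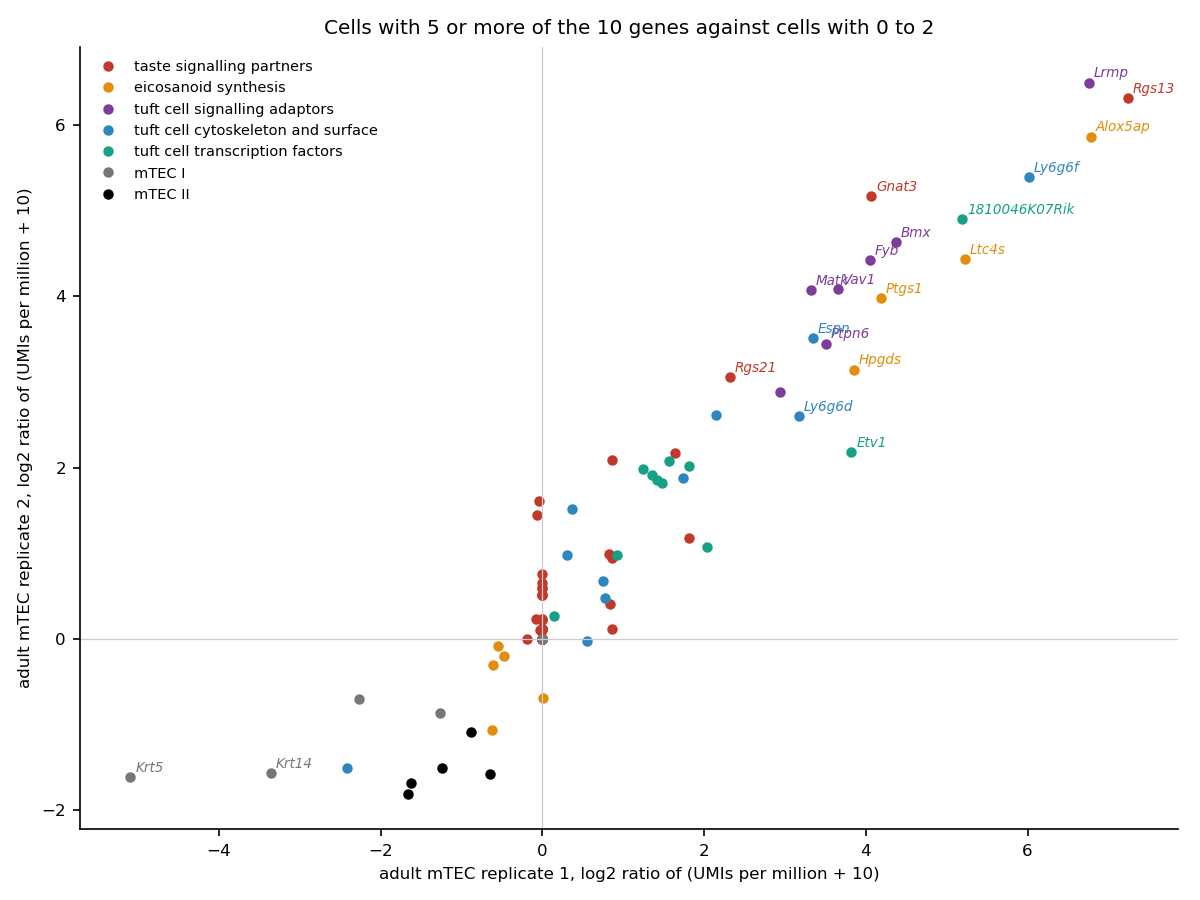
Log2 ratio of CPM + 10 between adult mTEC with 5 or more of the 10 genes and mTEC with 0 to 2, in replicate 1 (x axis) and replicate 2 (y axis), for genes of the named lists reported here; genes at 3 or more, in either direction, in at least 1 library are named. Rgs13, Lrmp and Alox5ap lie at the upper right, and Krt5 and Krt14 at the lower left.

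Of the 11 tuft cell transcription factors, Etv1 and 1810046K07Rik passed, and Spib, at 246 and 239 against 125 and 117 CPM, did not. Of the 11 cytoskeletal and surface genes, Espn, Cd24a, Ly6g6d and Ly6g6f passed. Espn, which bundles actin in microvilli, was at 803 and 872 against 70.0 and 67.1 CPM. Siglecf, a marker of intestinal tuft cells, was at 8.20 and 6.03 CPM. Of the lists, the 5 mTEC II markers had median log2 ratios of -1.24 and -1.58 and the 5 mTEC I markers of -2.26 and -0.87, with Aire at 131 and 109 against 437 and 408 CPM. The 5 mTEC III markers had medians of 2.64 and -0.09. In replicate 1 Krtdap, of cornifying epithelium, was at 1140 against 165 CPM but was detected in 14.3% of the 14 cells against 22.05%, and the keratin gene Krt1 was at 180 against 5.57 CPM, detected in 21.4% against 2.89%, so a few cells carried both. In replicate 2 they were at 238 against 186 and 18.1 against 19.9 CPM. Epcam was at 959 and 863 against 1000 and 670 CPM.

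In the fit of adult cTEC against mTEC, 3 of 6 taste signalling partners tested were called lower in cTEC and none higher, as were 3 of 8 signalling adaptors, 6 of 9 eicosanoid genes and 7 of 11 transcription factors, of which 1 (Runx1) was called higher. Gnat3 fell by 3.78 on the log2 scale (SE 1.13, edgeR adjusted p = 0.00700) and Rgs13 by 3.54 (SE 0.67, edgeR adjusted p = 3.03e-05). Of the 4 eicosanoid genes that passed the fold above, Alox5ap and Ltc4s were called lower in cTEC. Ptgs1 (log2 -0.02, edgeR adjusted p = 0.988) and Hpgds (log2 -0.75, edgeR adjusted p = 0.271) were not called. The other eicosanoid genes called lower, such as Tbxas1, had not passed that fold. Of the 2 transcription factors that had, 1810046K07Rik was called lower and Etv1 was not called (log2 0.36, edgeR adjusted p = 0.632). The lists were chosen with results of these data known, and their shares are to be read against the 21.3% of all genes called lower. Some other lists had higher shares: 5 of 5 mTEC II, 4 of 5 mast cell and basophil, 4 of 5 neuronal and neuroendocrine and 2 of 2 B cell markers tested were called lower in cTEC.

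The genes most like the group were ranked over single cells by Pearson r between their log-normalised UMIs and the number of the 10 genes detected, over 1586 and 5615 cells, among 13618 genes with a UMI in at least 20 cells of both libraries. Among the 10 highest by the lower of the 2 values were Rgs13 (0.638 and 0.647), Ly6g6f, Lrmp, Alox5ap, Ptgs1, Ltc4s, Mctp1, Plac8 and Il10 (0.401 and 0.380). Il10, the gene of an anti-inflammatory cytokine, was on none of the lists. Depth differed between the cells of a library, and cells were not thinned for this ranking. They also share the free RNA of their library, and no p is given.

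Alox5 and Plcb2 are known from leukocytes too. Ptprc was detected in 4 of 87 and 17 of 304 mTEC positive for Alox5, and in 1 of 11 and 16 of 171 positive for Plcb2, against 20 of 1586 and 88 of 5615 of all mTEC. Ptprc was higher in cells with 5 or more of the genes, at 32.8 and 20.7 against 1.90 and 1.72 CPM, in cells sorted as CD45-. There the 8 thymocyte markers, Ptprc among them, summed to 41.0 and 27.5 against 33.3 and 28.3 CPM, with Cd3g, Cd8b1, Rag1 and Ptcra at 0 in both libraries. The 4 B cell markers summed to 81.98 and 92.1 against 24.1 and 35.9 CPM, most of it from Cd79b, which was detected in 42.9% and 43.0% of the cells against 12.9% and 21.5%. Ms4a1 was at 0 in both. The 8 myeloid markers summed to 164 and 722 against 1178 and 1502 CPM, and the mast cell and basophil markers to 0 and 0.861 against 18.4 and 18.7. In NB cTEC, 2 of the 3 cells positive for Plcb2 and 2 of the 10 for Alox5 held Ptprc.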

How the data were processed

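Thymic epithelial cells of 8 wild-type samples were sorted and profiled by droplet single-cell RNA-seq. The authors made the deposited counts, whole numbers of UMIs per gene and cell, with Cell Ranger (2.0.1 per the study's methods, 3.0.1 in the matrix headers of data set 2) on mm10. The submitters' processing notes also name STAR 2.5.1b and bcl2fastq 2.17. Cell Ranger was run at its defaults, which count reads on the strand of the gene. Libraries of the FoxN1MycTg line were not analysed here.

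Cells with at most 5% mitochondrial UMIs and at most 5000 genes were kept, over the 27514 genes common to both gene lists. Doublets were not called, and an alternative left out the top 5% of cells by UMIs. UMIs were summed per library, and adult cTEC were compared with adult mTEC by edgeR 4.0.16 (quasi-likelihood, TMM, filterByExpr, limma 3.58.1, R 4.3.3) with the data set as a term, which left 1 residual degree of freedom per gene. DESeq2 1.42.0 was an alternative. The scripts were tested on simulated data. Fetal and NB groups were 1 library each and were not tested, and cells were never treated as replicates. Binomial and Poisson 95% intervals are exact and cover counting error only, and a UMI count of 0 was given the limit of 3 counts. Cells were thinned to 3000 UMIs with Python 3.11.15 and numpy 2.4.6. All 10 genes were described, other list genes by a 4-fold rule in both libraries, and alike genes as the top 10 by r. Some other list genes are not reported here by name. The 10 genes and the lists were chosen with earlier results of these data known.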

Additional observations from a re-analysis of the deposited data

Results flagged for a closer look

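For 5 genes the difference between adult cTEC and adult mTEC had opposite directions in the 2 data sets, each with 1 library per group, and the difference between the data sets was not tested. In data set 1 the counting interval of the ratio held no difference for 4 of them, and Avil alone lay beyond it. As log2 ratios of CPM, cTEC over mTEC, Trpm5 was at 0.47 in data set 1 and -4.02 in data set 2. Avil was at 0.98 and at most -4.80, the second taking 3 UMIs for the library at 0. Dclk1 was at 0.12 and -1.50, and Gng13 at 0.06 and -5.05. Sh2d6 was at 0.78 and at most -3.95, again against a library at 0. In data set 1, the 3 adult cTEC with 7 of the genes held 87.5% of the Trpm5 UMIs, 96.55% of Avil, 21.1% of Dclk1, 96.7% of Gng13 and 100% of Sh2d6.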

How the results depend on the processing

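The data set term of the fit pairs the adult libraries, 1 cTEC and 1 mTEC library to a data set. The fit called 5110 of 15650 genes and 4 of the 10 genes. The DESeq2 test called 2591 of 15650 genes and 1 of the 10. The fit without the data set term called 1 of the 10 (4257 of 15650 genes), and that on all deposited cells 7 of the 10 (5173 of 15974 genes). Leaving out 1 library in turn, which also dropped the data set term and left 1 group with a single library assumed to vary like the others, gave 2051 to 2922 genes and 0 to 3 of the 10, with 0 without adult cTEC replicate 2 (2 at an unadjusted p under 0.05 by edgeR, as were 38% of all genes). The fitted difference of each of the 10 genes was below 0 in each of up to 13 fits that tested it. The median over all genes was below 0 too, from -0.64 to -0.05. These fits reuse the same adult libraries, and that without cells holding 5 or more of the genes left out cells chosen by these same genes. Within data set 1 the CPM of 5 of the 10 was higher in cTEC, that of Avil alone beyond counting error. The cause of these shifts was not tested.

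The share of cells with 3 or more of the genes moved with the limit and the depth. With a limit of 2 genes the fetal and NB libraries, by age, had 0.252%, 0.28%, 0.635% and 0.416%, and the share was 6.94% and 24.92% in adult mTEC replicates 1 and 2. At 4 or more it was 1.07% and 3.06% in adult mTEC, at 5 or more (chosen after seeing the data) 0.883% and 2.28%, and thinned to 3000 UMIs 0.951% and 2.48%. Under each of these 3 settings E17.5 cTEC and the second adult cTEC library had a share of 0. With all deposited cells it was 2.70% and 8.16% in adult mTEC, and without the top 5% of cells by UMIs it was 0 at E17.5.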

Other observations

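Genes of other lists were compared between adult mTEC with 5 or more of the 10 genes and those with 0 to 2, with no test. Il17rb, a receptor chain for IL-25, was at 73.8 and 67.1 against 1.29 and 3.32 CPM, and Chat, which makes acetylcholine, at 41.0 and 87.8 against 0.857 and 1.35 CPM. The cytokine gene Il13 was at 16.4 and 34.4 against 119 and 114 CPM, which was not 4-fold lower in both libraries. Genes at least 4-fold lower in both libraries, as were 0.0667% of all genes, included Ccl25, a chemokine of cortical cells (8.20 and 49.1 against 232 and 322 CPM), Ccl20, a chemokine of microfold cells (0 and 31.0 against 135 and 208 CPM), and Fcer1g, an Fc receptor chain (0 and 15.49 against 45.1 and 93.3 CPM). In replicate 1 these values rest on 14 cells. Taking the cells with 3 or more of the genes, neither Il17rb nor Chat was 4-fold higher in both libraries, and no list gene was 4-fold lower in both. Il17rb was at log2 2.04 and 1.17, Chat at 1.29 and 1.40, Ccl25 at -3.02 and -0.37, Fcer1g at -1.73 and -0.89, and Ccl20 at 0.55 and -0.08.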
